A study of Mus musculus with 4 samples.

Results

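The imprinted Dlk1-Dio3 locus of mouse chromosome 12 gave 6 transcripts in a table of 13815 genes: the noncoding RNAs Meg3, Rian and Mirg, the protein-coding gene Rtl1 and its antisense transcript 6430411K18Rik, and the protein-coding gene Dlk1. They were taken by symbol from a given list, and all 6 members of that list are in the table. The members were selected on their levels in these same 3 mRNA libraries, mainly the difference between the knockouts, so every level and ratio of the 6 transcripts is a description and none is tested. By its title the study asked about a step of miRNA production that comes before Microprocessor. Poly(A) RNA was sequenced from Dgcr8-/-, Dicer-/- and WT mouse embryonic stem cells, and small RNA from the WT cells. The labels give the line V6.5 for all of them, and all were grown in serum with leukaemia inhibitory factor (sold as ESGRO). They describe neither the knockout alleles nor the number of clones. Each group is 1 library, so there is no replicate check, and differences between lines or cultures cannot be told apart from the genotype.

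Imprinted genes are read from the copy of only 1 parent. At this locus Dlk1, Rtl1 and Dio3 are known to be made from the paternal chromosome, and Meg3, the antisense transcript of Rtl1, Rian and Mirg from the maternal chromosome, in 1 orientation and as what is thought to be a long continuous transcription unit. A control region between Dlk1 and Meg3, methylated on the paternal copy, sets this choice, and methylation of the maternal copy goes with silent noncoding RNAs in some mouse stem cell lines. The maternal RNAs carry many miRNA hairpins and small nucleolar RNAs. Microprocessor, made of DROSHA and DGCR8, cuts such hairpins out of the nuclear transcript, and DICER trims them later in the cytoplasm. The table gives no parental alleles, so which chromosome a read came from is not known here.

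The first sequence that bears on the locus is the window around the annotated start of Meg3, the nearest of the noncoding RNAs to the control region, shown because Meg3, Rian and Mirg stood in the same order over the 3 libraries. It is given from 250 bases before to 50 bases after the start, from RefSeq in the build GRCm38.p6, at chr12:109540746-109541045 on the plus strand. Capitals mark matches, on either strand, to 4 motifs. The TATA box was searched as TATAAA. The cyclic AMP response element was searched as TGACGTCA. The CCAAT box was searched by the letters of its name. The core motif of the imprint factor ZFP57 was searched as TGCCGC.
Meg3 start window: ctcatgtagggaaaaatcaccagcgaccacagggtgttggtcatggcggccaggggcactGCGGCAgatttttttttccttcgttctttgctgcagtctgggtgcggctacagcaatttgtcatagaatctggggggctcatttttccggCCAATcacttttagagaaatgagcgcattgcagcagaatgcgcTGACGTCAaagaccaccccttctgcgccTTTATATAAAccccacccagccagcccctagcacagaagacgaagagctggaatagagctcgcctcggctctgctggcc
The window holds all 4 motifs. The TATA box stood on both strands in 1 overlapping stretch. The cyclic AMP response element was found in 1.79% of the 32851 windows of this length in the RefSeq table, the ZFP57 motif in 11.6%, the TATA box in 13.6% and the CCAAT box in 37.4%. The window at another annotated start of Meg3 held none of the 4, and the windows at the annotated starts of Rian and 6430411K18Rik held none either, while that of Mirg held the CCAAT box alone. A match is a description of these letters, not a site.

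The start of the Mirg entry lies inside the miRNA cluster, and its window is shown because the hairpins run into it. It covers chr12:109734731-109735030 (GRCm38.p6, plus strand), and capitals mark the mature forms of miR-668-5p, miR-668-3p and miR-485-3p in that order.
Mirg start window: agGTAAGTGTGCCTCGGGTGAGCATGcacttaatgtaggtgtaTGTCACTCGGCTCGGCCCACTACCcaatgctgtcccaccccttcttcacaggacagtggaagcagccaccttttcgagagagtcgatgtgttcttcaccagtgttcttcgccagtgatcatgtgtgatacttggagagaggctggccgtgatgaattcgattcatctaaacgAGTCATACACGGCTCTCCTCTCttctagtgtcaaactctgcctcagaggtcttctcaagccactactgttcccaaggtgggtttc
Between miR-485-3p, with 17 reads in WT cells, and the first base of the Mirg entry lie 13 bases.

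The mature miRNAs below are those with most reads in WT cells from each stretch (up to 3 each), with the seed (bases 2 to 8) in capitals, shown because they are what the noncoding transcripts are cut into. The hairpin of miR-770 lies in the span of Meg3. Those of miR-136, miR-434 and miR-127 lie in the span of Rtl1 but on the opposite strand to it. The hairpin of miR-433 lies in 6430411K18Rik, those of miR-370 and miR-341 in Rian, those of miR-381, miR-379 and miR-411 between Rian and Mirg (a stretch added after its reads were seen), and those of miR-409, miR-541 and miR-410 in Mirg.
mmu-miR-770-3p: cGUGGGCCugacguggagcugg
mmu-miR-136-5p: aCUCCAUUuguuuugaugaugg
mmu-miR-434-5p: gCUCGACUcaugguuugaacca
mmu-miR-127-3p: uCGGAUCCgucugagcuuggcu
mmu-miR-433-3p: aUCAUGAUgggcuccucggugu
mmu-miR-433-5p: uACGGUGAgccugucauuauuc
mmu-miR-370-3p: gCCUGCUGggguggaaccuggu
mmu-miR-341-3p: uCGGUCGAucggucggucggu
mmu-miR-341-5p: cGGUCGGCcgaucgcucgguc
mmu-miR-381-3p: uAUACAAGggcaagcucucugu
mmu-miR-379-5p: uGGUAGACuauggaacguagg
mmu-miR-411-5p: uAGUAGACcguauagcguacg
mmu-miR-409-3p: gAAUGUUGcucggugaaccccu
mmu-miR-541-5p: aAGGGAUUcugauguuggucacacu
mmu-miR-410-3p: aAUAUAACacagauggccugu
No seed is shared among the sequences shown. Over the locus, 83 listed mature miRNAs with a RefSeq sequence have 78 different seeds.

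The mRNA libraries hold 11123498 counts for Dgcr8-/-, 12309100 for Dicer-/- and 9931625 for WT, and levels are given as counts scaled to the same total in each library (CPM), where 1 CPM is 11.12, 12.31 and 9.93 counts in that order. The targeted genes were low where they should be and not at 0. Dgcr8 was 2.52-fold lower than WT in its knockout (2.16 to 2.96) and Dicer1 3.98-fold lower in its own (3.45 to 4.61). Dgcr8 had 20.9 CPM in the Dgcr8-/- library, 84.7 CPM in the Dicer-/- library and 52.7 CPM in WT, and Dicer1 had 128, 20.1 and 79.9 CPM in the same order. The stem cell genes Pou5f1, Nanog and Sox2 were present in all 3 libraries, at 1898, 577 and 523 CPM in Dgcr8-/-, 1635, 417 and 532 CPM in Dicer-/- and 2207, 405 and 382 CPM in WT. All 16 listed stem cell genes are in the table. By the 2-fold rule given below, 2 of 16 were higher and 0 lower in Dgcr8-/- than in Dicer-/- (all genes 4.15% and 5.05%). These 2, Zfp42 and Tbx3, had 386 and 74.3 CPM in Dgcr8-/-, 95.1 and 19.3 CPM in Dicer-/- and 488 and 239 CPM in WT. Against WT, 2 of 16 were higher and 5 lower in each knockout. The shares over all genes were 14.3% and 8.02% for Dgcr8-/- and 16% and 9.7% for Dicer-/-. A gene was tested for size in a pair of libraries when it reached 1 CPM in at least 1 of them, and called when its ratio on the log2(CPM + 1) scale reached 2-fold, a scale that understates the change of low genes. A gene that reached 1 CPM in only 1 of the libraries could only be called higher in that library. This holds for every list and for all genes. For single genes CPM values were divided, and the bracketed range is the 95% interval of an exact binomial on the counts. Intervals and floors cover counting error only, and they are too narrow if both mates of a read pair were counted, since 69.6% to 74.8% of the counts from 2 to 9 in a library are even numbers. An empty cell was read as 0, which allows up to 3 counts. A fold against an empty cell sets the observed count of the other library against 3 counts. It leaves out the counting error of that observed count, so it is not a strict lower bound.

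Rian, a spliced noncoding RNA that hosts small nucleolar RNAs, had 1287 counts (116 CPM) in Dgcr8-/- cells, 34 counts (2.76 CPM) in Dicer-/- cells and 413 counts (41.6 CPM) in WT cells. The Dgcr8-/- library was highest and the Dicer-/- library lowest, and the 3 counting intervals do not overlap (109 to 122, 1.91 to 3.86 and 37.7 to 45.8 CPM). The level in Dgcr8-/- was 2.78-fold that of WT (2.49 to 3.12), and the level in Dicer-/- was 15.1-fold lower than in WT (10.6 to 22). Between the knockouts the ratio was 41.9 (29.8 to 60.8), and on the log2(CPM + 1) scale, at 4.96, it ranked 1 of 12986 genes. Meg3, a noncoding RNA known as a growth suppressor in human cells, had 242 counts (21.8 CPM) in Dgcr8-/- cells, 6 (0.487 CPM) in Dicer-/- cells and 101 (10.2 CPM) in WT cells. It stood in the same order as Rian, again with no overlap of the counting intervals. The Dgcr8-/- level was 2.14-fold that of WT (1.69 to 2.73), a log2 ratio of 1.03 that passed the 2-fold line only just, and it was under the line at 0.90 with median-ratio scaling and 0.92 with TMM scaling. The Dicer-/- level was 20.9-fold lower than that of WT (9.26 to 58.2). Between the knockouts its ratio was 44.6 (20.2 to 123).

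Mirg, the noncoding RNA at the far end of the miRNA cluster, had 173 counts (15.6 CPM) in Dgcr8-/- cells, 0 in Dicer-/- cells and 20 counts (2.01 CPM) in WT cells. It followed the same order, with a wider gap between Dgcr8-/- and WT. The Dgcr8-/- level was 7.72-fold that of WT (4.85 to 13). The Dicer-/- level was 8.26-fold lower than that of WT with a floor of 3 counts set for the Dicer-/- library. Between the knockouts Mirg was 63.8-fold higher in Dgcr8-/- with the same floor set for Dicer-/-. Summed, Meg3, Rian and Mirg reached 153 CPM in Dgcr8-/-, 3.25 CPM in Dicer-/- and 53.8 CPM in WT, with ratios of 2.85 for Dgcr8-/- over WT (2.58 to 3.14) and 47.1 for Dgcr8-/- over Dicer-/- (34.4 to 66.1). The Dicer-/- sum was 16.5-fold lower than the WT sum (12 to 23.4). In such a bulk library, fewer cells with the transcript and less of it per cell cannot be told apart.

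**Figure D1:**
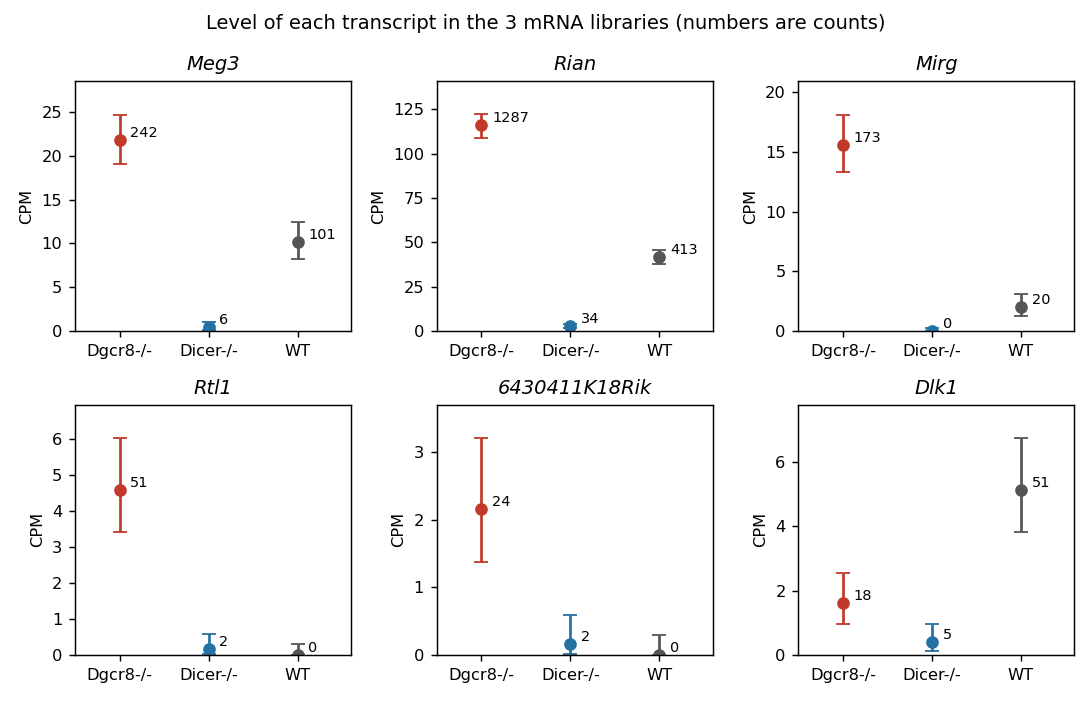
Level of each of the 6 transcripts in CPM (vertical axes, each from 0) in the Dgcr8-/-, Dicer-/- and WT libraries, with the count beside each point and bars for the exact Poisson 95% interval (for a count of 0, up to 3 counts). Meg3, Rian and Mirg are highest in Dgcr8-/- and lowest in Dicer-/-, Rtl1 and 6430411K18Rik have more than 2 counts in Dgcr8-/- alone, and Dlk1 is highest in WT.

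Rtl1, which encodes a retrotransposon-derived protein needed for the fetal capillaries of the placenta, had 51 counts (4.58 CPM) in Dgcr8-/- cells, 2 counts (0.162 CPM) in Dicer-/- cells and 0 in WT cells. Only the Dgcr8-/- library was above the floor. Its level there was 15.2-fold higher than in WT with the floor of 3 counts set for WT, and the ratio to Dicer-/- was 28.2 (7.42 to 239). The entry 6430411K18Rik, listed by RefSeq as Peg11as and lying inside the span of Rtl1, had 24 counts (2.16 CPM) in Dgcr8-/- cells, 2 counts (0.162 CPM) in Dicer-/- cells and 0 in WT cells. It had the order of Rtl1 in all 3 libraries. It was 7.14-fold higher in Dgcr8-/- than in WT with the same floor set for WT, and the ratio to Dicer-/- was 13.3 (3.3 to 116). No fold is given for either gene between Dicer-/- and WT, where both libraries are at or under 3 counts. The library kit keeps strand, but the labels do not say whether the counting used it, so sense reads of Rtl1 and reads of its antisense transcript cannot be told apart. The 2 entries may therefore share reads and are not taken as independent.

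Dlk1, a membrane protein related to the Notch ligands that restrains differentiation of fat and muscle precursors, was lower than WT in both knockouts, so in Dgcr8-/- its direction was opposite to that of the other 5 transcripts. It had 18 counts (1.62 CPM) in Dgcr8-/- cells, 5 counts (0.406 CPM) in Dicer-/- cells and 51 counts (5.14 CPM) in WT cells. WT was highest, and its counting interval (3.82 to 6.75 CPM) lay above those of Dgcr8-/- (0.959 to 2.56 CPM) and Dicer-/- (0.132 to 0.948 CPM). The level was 3.17-fold lower than WT in Dgcr8-/- (1.82 to 5.77) and 12.6-fold lower in Dicer-/- (5.08 to 40.6). The ratio between the knockouts was 3.98 (1.43 to 13.7), which came to 0.828 to 19.1 with counts halved, and it did not reach the 2-fold line on the log2(CPM + 1) scale, at 0.90. The table counts Dlk1 through a noncoding RefSeq entry, NR_033813, so how far these values follow the coding forms is not known here. Dio3, the thyroid hormone inactivating deiodinase gene at the far end of the locus and not among the 6 transcripts, was below 1 CPM throughout, with 8 counts in Dgcr8-/-, 10 in Dicer-/- and 2 in WT.

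Counted by the 2-fold rule for Dgcr8-/- over WT, all 6 transcripts passed the floor, 5 were higher and 1, Dlk1, was lower. With median-ratio or TMM scaling Meg3 left the count of higher ones. Of the 13223 genes tested, 14.3% were higher and 8.02% lower. The median log2 ratio of the 6 was 1.56, against 0.11 for all genes tested. For Dicer-/- over WT, 4 passed the floor and 4 were lower (Meg3, Rian, Mirg and Dlk1), where 9.7% of 13403 genes tested were lower. Rtl1 and 6430411K18Rik were under the floor in that pair. The median of the 4 was -2.52, against 0.10 for all genes tested. For Dgcr8-/- over Dicer-/-, 5 of 6 were higher and 0 lower, where 4.15% of 12986 genes tested were higher and 5.05% lower. The median was 3.10, against 0.00 for all genes tested. The list was chosen with these ratios known, Rtl1 and 6430411K18Rik passed the floor only through the Dgcr8-/- library and could only come out higher there, and the comparisons with WT share that library, so nothing is read from these counts. Median-ratio and TMM scaling moved the median of all genes by -0.13 and -0.11 for Dgcr8-/- over WT and by -0.11 and -0.10 for Dicer-/- over WT. The direction of each of the 16 ratios given for the 6 transcripts was the same under both.

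**Figure D2:**
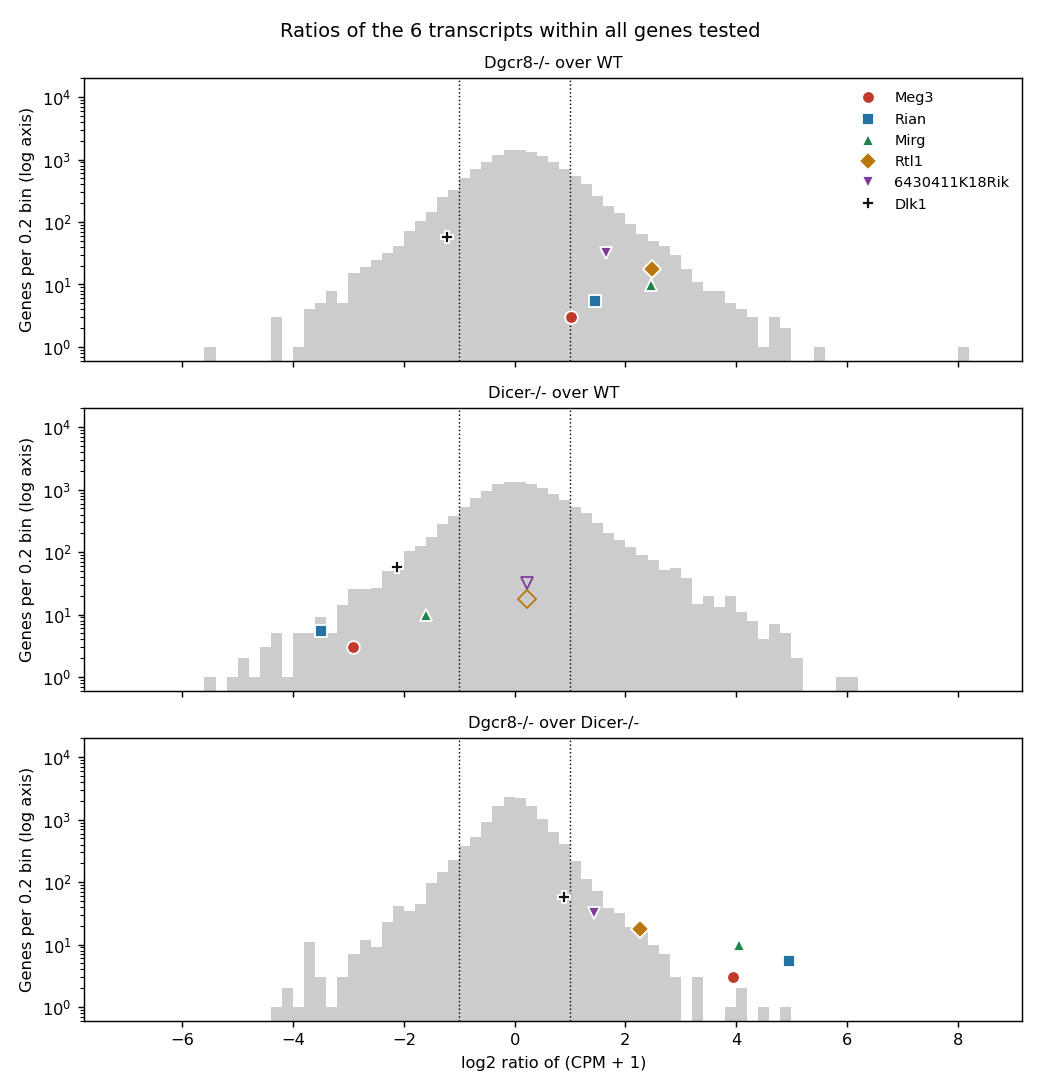
Log2 ratio of (CPM + 1) of the 6 transcripts (coloured markers, open where under the floor of 1 CPM) within the distribution of all genes tested (grey, genes per bin of 0.2 on a log axis) for the 3 pairs of libraries; the height of a marker has no meaning, and dotted lines mark 2-fold. In Dgcr8-/- over Dicer-/-, Rian (4.96), Mirg (4.05) and Meg3 (3.94) stand at the upper edge of all genes.

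Set against Rian in the same library, Meg3 and Mirg behaved differently. Library size drops out of these counts per 100 counts of Rian, and gene length only when they are compared between libraries. Meg3 had 18.8 counts per 100 counts of Rian in Dgcr8-/- (16.3 to 21.6), 17.6 in Dicer-/- (6.06 to 42.5) and 24.5 in WT (19.5 to 30.5). The 3 intervals overlap, and the ratio of Meg3 to Rian in Dgcr8-/- was 0.769 times that of WT (0.591 to 1.01). Mirg had 13.4 counts per 100 counts of Rian in Dgcr8-/- (11.4 to 15.8), 0 in Dicer-/- (up to 8.82 at the floor of 3 counts) and 4.84 in WT (2.93 to 7.58). The ratio of Mirg to Rian in Dgcr8-/- was 2.77 times that of WT (1.71 to 4.72). Along the locus, then, the Dgcr8-/- over WT ratio was 2.14 for Meg3, 2.78 for Rian and 7.72 for Mirg. Between Meg3 and Rian it was 15.2 for Rtl1 and 7.14 for 6430411K18Rik, both with the floor of 3 counts set for WT. In Dicer-/- the low counts leave the shares of Meg3 and Mirg without resolution.

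**Figure D3:**
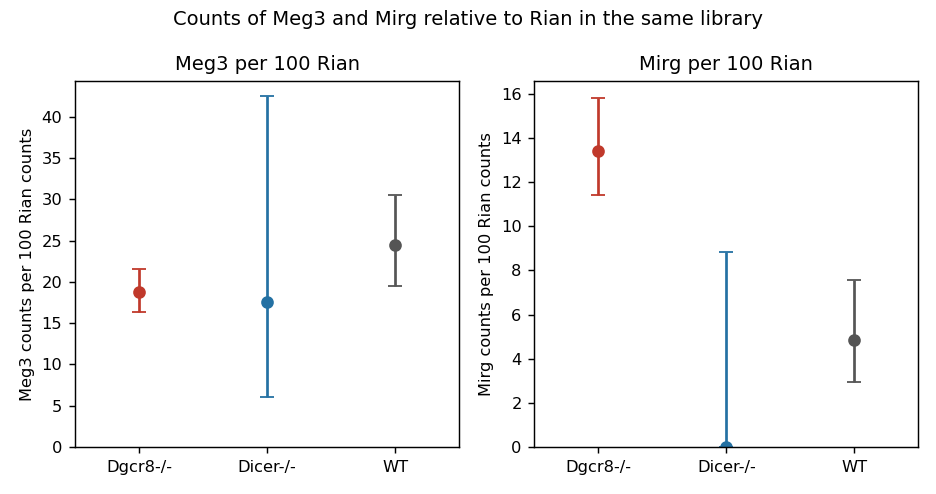
Counts of Meg3 (left) and Mirg (right) per 100 counts of Rian (vertical axes) in the Dgcr8-/-, Dicer-/- and WT libraries, with exact 95% counting intervals as bars. Meg3 overlaps between libraries, at 18.8, 17.6 and 24.5, while Mirg is at 13.4 in Dgcr8-/-, 0 in Dicer-/- and 4.84 in WT.

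The mature miRNAs of the locus were measured in WT cells only. They made up 0.894% of 2594949 small RNA reads (exact Clopper-Pearson 95% interval 0.883% to 0.905%), from 87 of the 707 listed miRNAs. Of the 23198 reads, 9 fell in the span of Meg3, 5905 in the span of Rtl1, 231 in that of Rian, 14279 between Rian and Mirg and 2774 in Mirg, so that 61.6% came from between the last 2 annotated entries. Most of those in the Rtl1 span, 5898, came from hairpins on the strand opposite to Rtl1, among them miR-136-5p with 1691 reads, miR-434-5p with 1610 and miR-127-3p with 1459. The largest of the locus was miR-381-3p with 5115 reads, and it ranked 28 of the 707. In the same WT cells the poly(A) table gave 0 counts for Rtl1 and for 6430411K18Rik, the entry that contains the hairpin of miR-433, whose 2 arms had 79 reads. Mirg, with 20 WT counts, held 16 listed miRNAs with 2774 reads, and Rian, with 413 WT counts, held 4 with 231 reads. Spans are those of another build than the authors'. No small RNA library of the knockouts was analysed here.

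**Figure D4:**
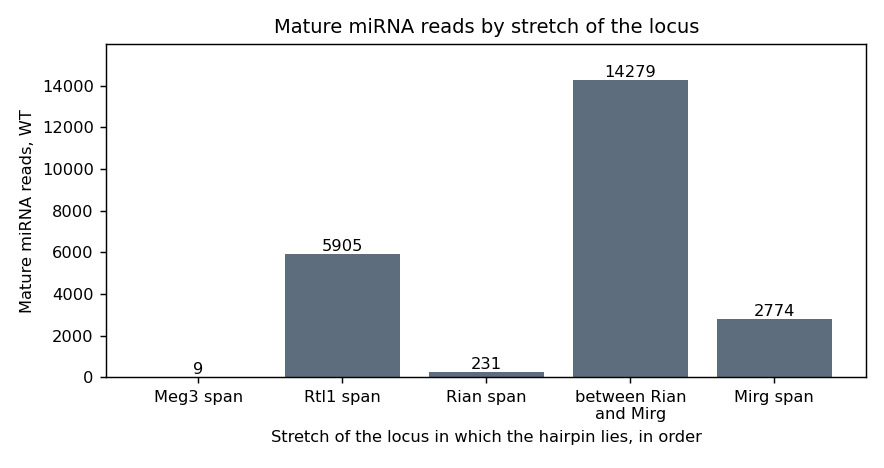
Mature miRNA reads in WT cells (vertical axis, from 0) by the stretch of the locus that holds the hairpin, in chromosome order; the bar for Rtl1 includes the hairpin in 6430411K18Rik. The stretch between Rian and Mirg has 14279 of the 23198 reads, and the spans of Meg3 and Rian have 9 and 231.

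Of 22 listed neighbours 20 are in the table. For Dgcr8-/- over Dicer-/-, 17 were tested, 0 were higher and 3 lower (Slc25a47, Degs2 and Evl), with a median log2 ratio of -0.10. Over all genes tested in that pair 4.15% were higher and 5.05% lower. The 0 of 17 higher is near the share over all genes, and the 3 of 17 lower is above it. Of these 3, Slc25a47 had 3 counts in Dgcr8-/- and 30 in Dicer-/-. It passed the floor only through Dicer-/- and could only come out lower, so nothing is read from the 3 of 17. With 5 counts in WT, it passed only through Dicer-/- in that pair too. Begain, the nearest listed gene on the Dlk1 side, had 6 counts in Dgcr8-/-, 18 in Dicer-/- and 12 in WT. Ppp2r5c, a phosphatase subunit gene and the nearest beyond Dio3, had 140 CPM in Dgcr8-/-, 166 CPM in Dicer-/- and 120 CPM in WT. Wdr25 had 7.73, 6.01 and 6.44 CPM in the same order. Evl, a regulator of actin filaments, had 30.8 CPM in Dgcr8-/-, 63 CPM in Dicer-/- and 23.4 CPM in WT, and the sphingolipid enzyme gene Degs2 had 10.7, 24.3 and 6.75 CPM, both highest in Dicer-/-. Rcor1, a corepressor gene, was the highest of the neighbours above 5 CPM between the knockouts, at 19.2 CPM in Dgcr8-/- and 12.1 CPM in Dicer-/-, with 7.45 CPM in WT. Against WT, 2 of 18 were higher and 1 lower in Dgcr8-/- (median 0.23; all genes 14.3% higher, 8.02% lower), and 4 of 19 were higher and 0 lower in Dicer-/- (median 0.33; 1 lower with median-ratio or TMM scaling). For Dicer-/- over WT, 16% of all genes tested were higher and 9.7% lower.

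**Figure D5:**
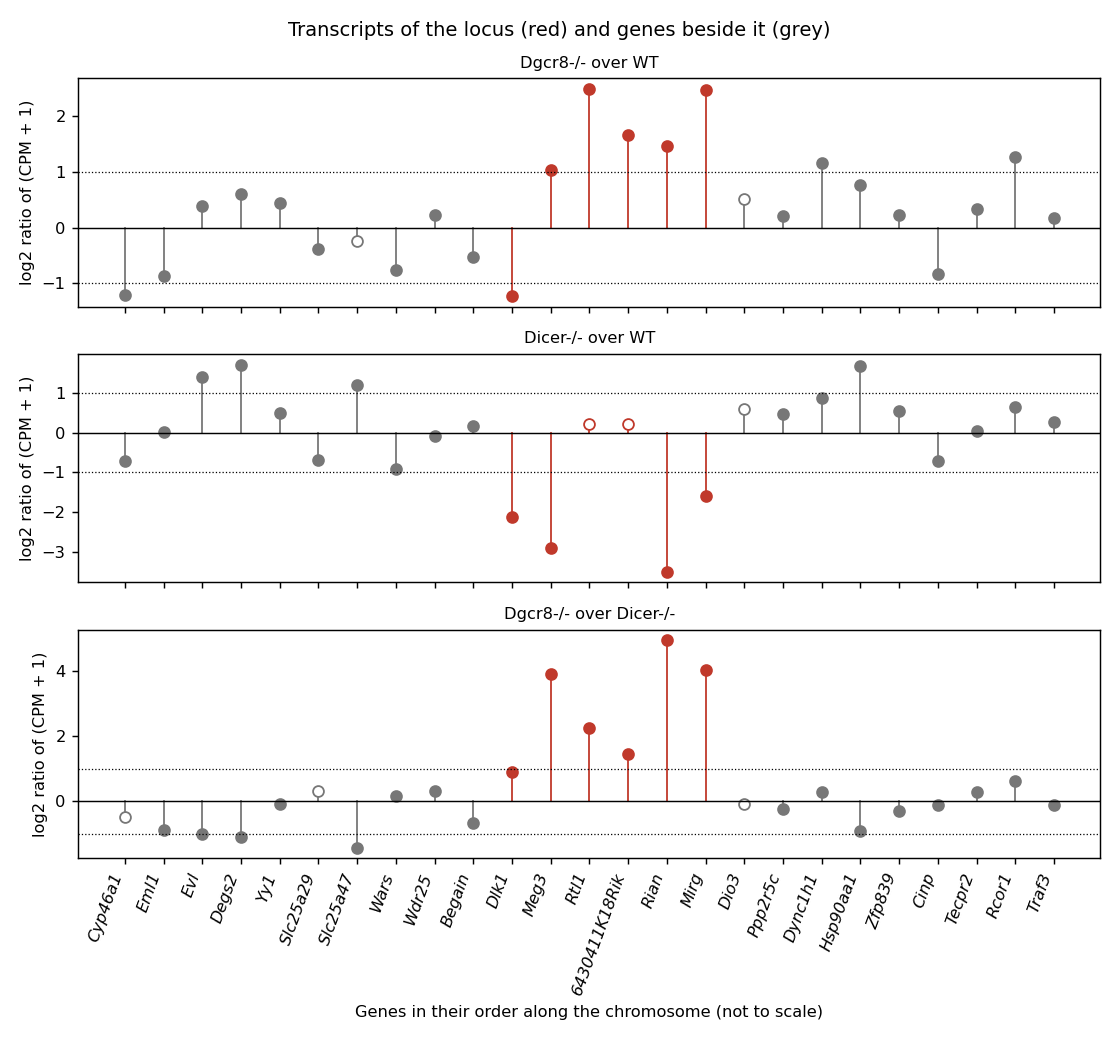
Log2 ratio of (CPM + 1) of the 6 transcripts (red) and of the listed neighbours that RefSeq places (grey), in their order along the chromosome, for the 3 pairs of libraries; open circles are under the floor of 1 CPM and dotted lines mark 2-fold. In Dicer-/- over WT, Dlk1 (-2.13), Meg3 (-2.91), Rian (-3.50) and Mirg (-1.59) lie below all neighbours shown, while Rtl1 and 6430411K18Rik (both 0.22) lie among them; in Dgcr8-/- over WT, Meg3 (1.03) lies below the neighbours Rcor1 (1.26) and Dync1h1 (1.15).

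Genes known to act on the imprint of the locus were mixed. All 22 on the list were tested. For Dgcr8-/- over Dicer-/-, 1 was higher and 3 lower, with a median of 0.03 (all genes 4.15% higher, 5.05% lower, median 0.00). Dppa3, which protects maternal methylation in the early embryo, had 0.989 CPM in Dgcr8-/-, 23.3 CPM in Dicer-/- and 4.93 CPM in WT. Aff3, whose protein binds the control region in mouse stem cells, had 1.98 CPM in Dgcr8-/-, 14.7 CPM in Dicer-/- and 2.22 CPM in WT. Both were named because their ratios between the knockouts were the 2 lowest of the list. A higher level in Dicer-/- than in Dgcr8-/- therefore follows from that choice. The DNA methyltransferase gene Dnmt3a, named after its values were seen, was the other lower gene, with 59.4, 124 and 56.9 CPM in that order of groups. Tet2, which oxidises methylated cytosine, was higher in Dgcr8-/- at 89.1 CPM, against 42.4 CPM in Dicer-/-, and had 88.2 CPM in WT. Uhrf1, the partner of the maintenance methyltransferase, had 348, 252 and 330 CPM and did not reach 2-fold. Zfp57, also named after its values were seen, encodes the factor that keeps imprints methylated and had 293 CPM in Dgcr8-/-, 267 CPM in Dicer-/- and 750 CPM in WT. It was lower in both knockouts than in WT. The part of these genes in the levels of the 6 transcripts was not tested, and no methylation data were analysed here.

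The 5 genes whose pattern over the 3 libraries was most like that of Rian, by the distance between the pairs of log2 ratios to WT, were Kbtbd11 (0.44), Inhbb (1.23), Arhgdib (1.51), Bhlhe40 (1.74) and Dicer1 (1.75), out of 10571 candidates. Kbtbd11 had 30.7 CPM in Dgcr8-/-, 0.325 CPM in Dicer-/- and 14.7 CPM in WT, and the activin subunit gene Inhbb had 157, 15 and 121 CPM. Dicer1 is on this list as the gene targeted in the Dicer-/- cells. Nearest to Dlk1 were the cyclin gene Ccnd3 (0.07), Extl1 (0.09) and the acyl-CoA synthetase gene Acsl6 (0.13). Ccnd3 had 316 CPM in Dgcr8-/-, 180 CPM in Dicer-/- and 753 CPM in WT. Nearest to Rtl1 were the calpain gene Capn3 (0.26), Hoxa11 (0.31) and Ly75 (0.41), and Hoxa11, a homeobox gene, had 66 counts in Dgcr8-/-, 2 in Dicer-/- and 0 in WT. With 3 libraries such likeness is weak.

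Of 36 other imprinted genes tested for Dgcr8-/- over Dicer-/-, 1 was higher and 4 lower (Peg3, Grb10, Cdkn1c and Inpp5f), with a median of -0.26. Over all genes 4.15% were higher and 5.05% lower, with a median of 0.00. The count of higher ones is near the share over all genes, and that of lower ones, 4 of 36, is above it. The neuronal gene Nnat was the higher one, with 7.37 CPM in Dgcr8-/-, 1.62 CPM in Dicer-/- and 5.94 CPM in WT, and the growth factor gene Igf2 had 21.4, 10.9 and 7.25 CPM. Peg3, a zinc finger gene, had 13.4 CPM in Dgcr8-/-, 60.7 CPM in Dicer-/- and 5.74 CPM in WT, and the growth inhibitor gene Grb10 had 24.6, 95.5 and 114 CPM. Against WT, 4 of 36 other imprinted genes were higher and 8 lower in Dgcr8-/- (all genes 14.3% and 8.02%), with a median of -0.32. With median-ratio or TMM scaling 2 were higher and 9 lower. In Dicer-/-, 4 of 36 were higher and 5 lower than in WT (all genes 16% and 9.7%), with a median of -0.09. Of a list of noncoding transcripts elsewhere that mostly host miRNAs, 10 were tested, 4 were higher in Dgcr8-/- than in Dicer-/- and 0 lower, with a median of 0.55 (Mir22hg, Dleu2, 2610203C20Rik and E130102H24Rik), where 4.15% of all genes were higher. For Dgcr8-/- over WT, 4 of 10 were higher and 0 lower, with a median of 0.73 (all genes 14.3% higher, median 0.11), and for Dicer-/- over WT 1 of 8 was higher and 1 lower, with a median of -0.01. Of these 2610203C20Rik had 2.61 CPM in Dgcr8-/-, 0.569 CPM in Dicer-/- and 5.64 CPM in WT, and 1700020I14Rik, which did not reach 2-fold between the knockouts, had 13.3, 11.1 and 5.64 CPM. Between the knockouts Dleu2, 2610203C20Rik and E130102H24Rik passed the floor only through Dgcr8-/- and could only come out higher. For Dgcr8-/- over WT the same holds for Dleu2 and C430049B03Rik. For Dicer-/- over WT 2610203C20Rik passed only through WT and could only come out lower. Nothing is therefore read from the counts of this list. Gas5 and Snhg1, which host small nucleolar RNAs, had 71.3 and 41.4 CPM in Dgcr8-/-, 93.1 and 52.1 CPM in Dicer-/- and 84.7 and 48.1 CPM in WT. For the Notch pathway, to which Dlk1 is related, 1 of 25 was higher and 3 lower between the knockouts (Dll1, Dll3 and Maml2), with a median of -0.07 (all genes 4.15% higher, 5.05% lower). Against WT, 7 of 23 were higher and 1 lower in Dgcr8-/- (all genes 14.3% and 8.02%), and 8 of 25 were higher and 1 lower in Dicer-/- (all genes 16% and 9.7%; 2 lower with median-ratio or TMM scaling). The receptor gene Notch4, named as the highest of the list between the knockouts, had 84.4 CPM in Dgcr8-/-, 13.8 CPM in Dicer-/- and 34.1 CPM in WT. The ligand genes Dll1 and Dll3 had 0.539 and 1.62 CPM in Dgcr8-/-, 6.82 and 6.58 CPM in Dicer-/- and 0.806 and 2.32 CPM in WT, and the effector gene Hes1 had 59.6, 36.6 and 44.1 CPM.

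Fibroblasts of a feeder layer also make the RNAs of this locus. Of 18 fibroblast markers 12 are in the table, and their summed level was 168 CPM in Dgcr8-/-, 125 CPM in Dicer-/- and 170 CPM in WT. Col1a2, Col3a1, Lum, Dcn, Postn and Lox are not listed in it. The collagen gene Col1a1 had 0.539 CPM in Dgcr8-/-, 0.406 CPM in Dicer-/- and 9.77 CPM in WT, and Thy1 had 2.07, 1.3 and 17.6 CPM. Both were highest in WT and were named after their values were seen, and other markers stood in other orders. Fbln1, with the highest level of the list, had 105 CPM in Dgcr8-/-, 82.8 CPM in Dicer-/- and 56.2 CPM in WT. Tagln had 17.1, 17.8 and 4.63 CPM in that order of groups, Mmp2 10.2, 10.6 and 38.6 CPM and Col5a1 22.2, 7.88 and 22.4 CPM. Over the list, 1 of 12 was higher and 6 lower in Dgcr8-/- than in WT (all genes 14.3% and 8.02%). In Dicer-/-, 2 of 12 were higher and 7 lower than in WT (all genes 16% and 9.7%). Between the knockouts, 2 of 7 were higher and 0 lower in Dgcr8-/- than in Dicer-/- (all genes 4.15% and 5.05%). Of those called lower in Dgcr8-/-, Col1a1, Pdgfra, Col6a2 and S100a4 passed the floor only through WT and could only come out lower. In Dicer-/- this holds for Col1a1, Pdgfra, Col6a2 and Pdgfrb, while Acta2 passed only through Dicer-/- and could only come out higher. Between the knockouts Pdgfrb passed only through Dgcr8-/-. Nothing is therefore read from these counts. The part of fibroblasts in the levels of the 6 transcripts was not tested. S100a4 was at 0 in Dgcr8-/-, with 6 counts in Dicer-/- and 11 in WT. Pdgfrb, a receptor of mesenchymal cells named as the highest of the list between the knockouts, had 8.45 CPM in Dgcr8-/-, 0.812 CPM in Dicer-/- and 12.7 CPM in WT. Summed markers of endoderm had 44.6, 69.5 and 162 CPM, of mesoderm and muscle 12.7, 10.2 and 80.2 CPM, of neural cells 275, 292 and 189 CPM and of trophoblast 233, 193 and 89.3 CPM, each in the order Dgcr8-/-, Dicer-/- and WT, from 8 of 12, 4 of 12, 9 of 12 and 8 of 10 listed genes. Hnf4a was at 0 in both knockouts, Gata6 in Dicer-/- and Gata3 in WT. The endoderm and muscle sums were highest in WT, as was Dlk1. Most of the endoderm sum in WT came from Lama1 (87.3 CPM) and Col4a1 (55.6 CPM). Gata4 went the other way, with 7.73 CPM in Dgcr8-/-, 6.09 CPM in Dicer-/- and 1.51 CPM in WT. In the muscle list Kdr also did, with 1.08, 2.27 and 0.101 CPM in that order of groups. The part of endoderm or muscle cells in the level of Dlk1 was not tested.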

How the data were processed

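The labels' protocols give Trizol extraction, a stranded kit for poly(A) RNA and an Illumina small RNA kit. Bowtie, with no version, and the build mm9 are named in the submitters' processing notes; how reads were counted, with which annotation and whether by strand, is not stated in these sources. The authors deposited whole-number counts per RefSeq entry for 13815 genes and per mature miRNA for 707 miRNAs, in 1 column per library. Every gene reaches at least 10 counts in 1 library. CPM used the sum of the table as the library size; ratios of CPM, and log2(CPM + 1) for the 2-fold call with its floor of 1 CPM, were compared; with 1 library a group no test was run. Meg3 was matched to RefSeq (GRCm38.p6) by symbol, since its entry NR_046475 is not among those of that table, and the other 5 transcripts by entry. Of the 707 miRNAs, 546 were placed by mature name and 130 by hairpin symbol, and 31 were unmatched; a miRNA was given to the entry whose GRCm38.p6 span holds it. No GRCm38.p6 position was set against mm9.

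The members and gene lists were chosen with earlier results of these data known. Named genes were the members, the targeted genes, the nearest listed neighbours, from each list the 2 highest and 2 lowest between the knockouts at 5 CPM or more, the genes nearest in pattern, and the 3 miRNAs with most reads of each stretch. Of the marker lists only those bearing on the locus are named. Col1a1, Thy1, Fbln1, Zfp57, Dnmt3a, Slc25a47, Maml2, Cdkn1c, Inpp5f, Mir22hg, Dleu2 and E130102H24Rik were named after their values were seen. So were C430049B03Rik, Pdgfra, Col6a2, Acta2 and Kdr. Ratios and intervals were tested on simulated data. Python 3.11.15, scipy 1.17.1 and edgeR 4.0.16 (TMM factors only) were used. Alternatives were other pseudocounts, floors, fold limits and scalings.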

Additional observations from a re-analysis of the deposited data

Results flagged for a closer look

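Meg3, Rian and Mirg stood at least 2-fold from WT in opposite directions in the 2 knockouts. Their log2 ratios of (CPM + 1) were 1.03, 1.45 and 2.46 for Dgcr8-/- over WT and -2.91, -3.50 and -1.59 for Dicer-/- over WT, in the order Meg3, Rian, Mirg. With median-ratio and TMM scaling Meg3 was under the 2-fold line for Dgcr8-/- over WT, at 0.90 and 0.92. The Mirg ratio for Dicer-/- over WT rests on 0 counts against 20. With 1 library a group the difference was not tested, and both ratios of a transcript use the same WT library.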

How the results depend on the processing

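No paired analysis was possible because each group has 1 library, and no replicate was left out for the same reason. The 6 transcripts gave 16 log2 ratios with more than 3 counts in at least 1 library. Under pseudocounts of 0.1 and 5, both scalings and summed entries of a symbol, 0 of the 80 values changed sign. A pseudocount added to both libraries cannot change the sign of a ratio. Summed entries left each ratio at its main value, as for Meg3 at 1.03 for Dgcr8-/- over WT. For the sign, only the values under both scalings were thus a test. Of the 80 values, 5 moved beyond the counting interval, all 5 with a pseudocount of 5. Ratios against a count of 0 have no outer limit, so they were not able to count as moved. With counts halved, 11 of the 12 intervals of ratios with counts in both libraries kept their side of 1. The exception is Dlk1 between the knockouts, and the other 4 ratios are set against the floor of 3 counts and have no interval.

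A pseudocount of 5 left 2 of the transcripts higher and 0 lower for Dgcr8-/- over WT, 2 lower for Dicer-/- over WT and 3 higher for Dgcr8-/- over Dicer-/-. A floor of 5 CPM left 3 higher in Dgcr8-/- over WT and 3 over Dicer-/-, and a 4-fold call left 2 higher and 0 lower in Dgcr8-/- over WT.

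Over all genes, a pseudocount of 5 gave 1087 higher and 411 lower for Dgcr8-/- over WT, 1232 and 591 for Dicer-/- over WT, and 182 and 222 for Dgcr8-/- over Dicer-/-. A 1.5-fold call gave 3581 and 2345, 3759 and 2642, and 1642 and 1618 for the same pairs, and a 4-fold call 342 and 159, 539 and 233, and 63 and 114. The floor of 5 CPM gave 696 lower in the first pair and 415 lower in the third, and a pseudocount of 0.1 gave 849 higher and 1004 lower in the third. Genes higher made up 64.1% of calls for Dgcr8-/- over WT, and 53.6% with median-ratio scaling. Without miR-293-3p in the denominator, the mature miRNAs of the locus were 1.45% of reads.

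Depth limits Rtl1, 6430411K18Rik, Mirg, Dlk1 and Meg3 in Dicer-/-, where they have at most 6 counts.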
